A study of Homo sapiens with 18 samples.

Results

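The genes described here are 32 genes of cholesterol and fatty acid synthesis, sterol sensing and cholesterol export, out of 38716 gene symbols in the deposited tables. They were chosen by name from their known roles and not by a filter on their values, but with earlier results of these data known. The set held 7 genes of the route from acetyl-CoA to farnesyl diphosphate, 11 genes of the route from squalene to cholesterol, 4 genes of sterol sensing and transport, 8 genes of fatty acid synthesis and desaturation, and 2 genes of efflux. The first 18 are called the sterol branch below.

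They were measured in IMR90, which are primary human fetal lung fibroblasts. The assays were ribosome profiling (Ribo-seq, which sequences the stretches of mRNA that ribosomes protect from nuclease) and poly(A) mRNA-seq. The young group was proliferating IMR90 of low passage. The old group had been passaged until replicative senescence. The ICM group was low-passage IMR90 treated with inflachromene, a compound whose targets are HMGB1 and HMGB2, proteins that bend DNA. Each of the 3 conditions had 3 lysates, each lysate gave a library of both assays, and there were 18 libraries in all. All cells were IMR90 and were not separated by type or cycle stage. Lysates were made in buffer with cycloheximide, which arrests elongating ribosomes.

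Cells build cholesterol from acetyl-CoA by way of mevalonate, farnesyl diphosphate, squalene and a series of ring-modifying steps. The transcription factors SREBP-2 (gene SREBF2) and SREBP-1 (SREBF1) are held at the endoplasmic reticulum by INSIG proteins while sterol is plentiful, and move to the nucleus to drive synthesis genes when sterol falls. SREBP-2 acts mainly on sterol genes and SREBP-1 mainly on fatty acid genes. Oxysterols, in contrast, activate LXR receptors, which drive the exporters ABCA1 and ABCG1.

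SREBPs bind sterol regulatory elements, and act together with NF-Y, which binds a CCAAT box, and Sp1, which binds a GGGCGG box. RefSeq promoter windows, from 250 bases before to 50 bases after a gene's start in build GRCh38.p14, were found for 27 of the 32 genes, and FASN, ACAT2, SQLE, FDFT1 and ABCG1 had none in the table used. On either strand, CCAAT stood in a window of 21 of the 27 genes (77.8%) and of 39.7% of all 27305 genes with a window. It stood in 13 of 15 sterol branch genes, 5 of 7 fatty acid genes and not in ABCA1, and GGGCGG stood in 25 of the 27 (92.6%) and in 48.3% of all genes. The pattern TCACNCCAC, a form of the sterol regulatory element, stood in 1.39% of all genes and in 1 of these, SREBF2. A match is a run of letters and not a measured binding site. Stretches of 30 bases are printed below, with the motif in capitals, for the genes whose values the results below turn on. They are written along the gene's strand, so that ATTGG is CCAAT on the other strand and CCGCCC is GGGCGG on the other strand.
SREBF2, sterol regulatory element, chr22:41832962-41832991 (+): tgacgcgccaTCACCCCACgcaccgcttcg
HMGCS1, CCAAT box, chr5:43313495-43313524 (-): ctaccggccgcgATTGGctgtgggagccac
IDI1, CCAAT box, chr10:1048956-1048985 (-): ctggcgcgagcgATTGGctgcgcggcccgg
MSMO1, CCAAT box, chr4:165327581-165327610 (+): caactgcacagaCCAATcaccgcgccgaga
HSD17B7, CCAAT box, chr1:162790638-162790667 (+): tggcggactgagATTGGagggatcagctca
DHCR7, CCAAT box, chr11:71448470-71448499 (-): caggctcctcgaCCAATcacggggcgcgga
INSIG1, CCAAT box, chr7:155297696-155297725 (+): cgccggcctcccATTGGttgcggccgcctc
STARD4, CCAAT box, chr5:111512679-111512708 (-): atttatcggccaCCAATcagccctccacac
SCD, CCAAT box, chr10:100347035-100347064 (+): aattcccttcggCCAATgacgagccggagt
FADS1, GGGCGG box, chr11:61817191-61817220 (-): tcaaccccggccCCGCCCacccttcctgcg
FADS2, GGGCGG box, chr11:61816238-61816267 (+): ggggttctgtccCCGCCCagagacctgagg
ABCA1, GGGCGG box, chr9:104928301-104928330 (-): cgcccgtttaagGGGCGGgccccggctcca

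FADS1 and FADS2, the desaturases that introduce double bonds into polyunsaturated fatty acids, lie head to head on chromosome 11, and the start of FADS1 is 599 or 800 bases beyond the listed starts of FADS2.

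Depth set what each assay could show. Reads in coding genes ran from 7902427 to 14144455 in the mRNA-seq libraries, whereas reads in the coding sequence (CDS) ran from 46239 to 1718521 in the Ribo-seq libraries. Ribo-seq depth differed by condition. CDS reads in replicates 1 to 3 were 54421, 685061 and 1718521 in young, 1672807, 54708 and 583798 in old and 225041, 78980 and 46239 in ICM. In young replicate 1 and old replicate 2 of Ribo-seq only 34.4% and 15.0% of reads lay in the CDS. All 10 fibroblast markers were above 1 CPM (counts scaled to a library's total after TMM normalization, which evens out differences in composition between libraries) in every mRNA-seq library, but their summed level was lower in ICM (12517 to 13024 CPM) than in young (29482 to 33441) and old cells (28228 to 31862). Markers of epithelial, endothelial, adipocyte and hepatocyte cells summed to at most 18.9 CPM, and those of immune cells to 19.8 to 21.8 in young, 33.1 to 36.0 in old and 54.5 to 66.8 in ICM cells. CD68 was the only one of 4 immune markers above 1 CPM in every library. In such bulk samples, fewer cells of a type and less RNA per cell cannot be told apart. The part of these shifts in the results below was not tested.

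The Ribo-seq library labelled ICM replicate 3 stood apart from the others of its group. In 239 genes whose mRNA was more than 4-fold lower in ICM than in both other conditions, footprints summed to 6652 and 7121 CPM in ICM replicates 1 and 2 but to 17742 in replicate 3, against 37584 to 45717 in the young and old libraries. In 154 genes whose mRNA was as much higher in ICM, footprints summed to 38826, 34621 and 26007 CPM in the ICM replicates, against 5079 to 8577 elsewhere. These genes were chosen by mRNA-seq alone, and the 32 genes were left out of them. The mRNA-seq library of the same lysate did not stand apart. Footprint changes called in ICM against young cells are given with and without it.

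**Figure D1:**
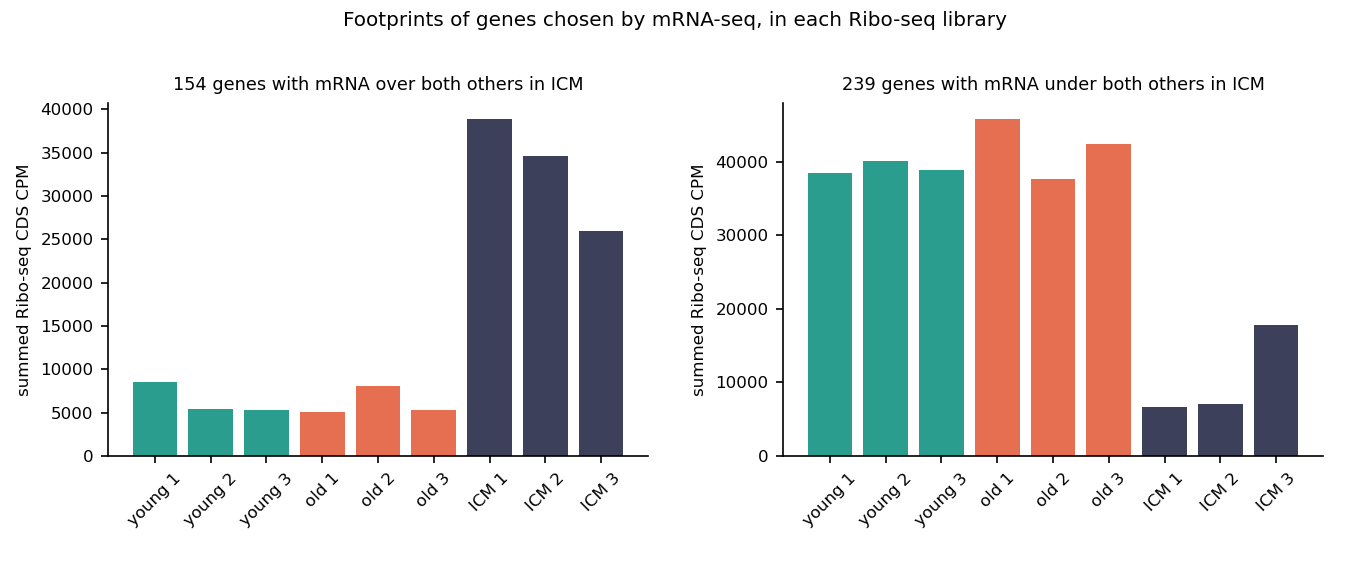
Summed Ribo-seq CDS level (CPM) of genes chosen by mRNA-seq, 1 bar per library, with young, old and ICM in 3 colours. ICM replicate 3 sits at 17742 in the 239 genes with low ICM mRNA, between the other ICM libraries (6652 and 7121) and the 6 young and old libraries.

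ICM against young sets treated low-passage cells against proliferating ones. The paper reports that treated cells stopped growing, and the part of that arrest in the changes was not tested. In mRNA-seq, most tested genes of every role rose. Of the 32 genes, 31 passed the filter on low counts (all but ABCG1), and 27 of these rose and 0 fell (edgeR quasi-likelihood test, Benjamini-Hochberg adjusted p under 0.05 over 13173 genes). Over all genes tested, 34.9% rose and 36.1% fell. The median log2 change was 0.55 over the 31 genes and -0.01 over all genes. The 4 genes without a call, PMVK, SREBF1, ACACA and ELOVL6, had log2 changes from 0.07 to 0.14.

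The largest change was in FADS1, the delta-5 desaturase. Its mRNA stood at 98.2, 95.6 and 94.3 CPM in young replicates 1 to 3, and at 576, 651 and 515 CPM in the ICM replicates. The groups lay far apart, with a 6.05-fold higher level in ICM (log2 2.60 ± 0.08 SE, adjusted p = 4.3e-18, edgeR). FADS2, the delta-6 desaturase of the same pathway, was at 211, 213 and 227 CPM in young and 591, 627 and 601 CPM in ICM cells, 2.79-fold higher. ELOVL5, which lengthens the products of both desaturases, rose by 0.93 ± 0.06 on the log2 scale. Part of a read's assignment is uncertain for this pair, since 490 exonic bases are shared by annotated FADS1 and FADS2 transcripts on opposite strands, or 4.79% of the exonic bases of FADS1.

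Fatty acid genes as a group had 6 of 8 members called higher, with a median log2 change of 0.63. ACLY, which makes cytosolic acetyl-CoA from citrate, and FASN, the fatty acid synthase, both rose by 0.63 (SE 0.06 and 0.12). SCD, which makes oleate from stearate, rose by 0.48 ± 0.06. The exceptions were ACACA, the carboxylase that makes malonyl-CoA (0.12 ± 0.06, adjusted p = 0.094, edgeR), and ELOVL6, an elongase of saturated chains (0.14 ± 0.07, adjusted p = 0.060, edgeR).

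On the route to farnesyl diphosphate, 6 of 7 genes rose (median 0.67). IDI1, the isopentenyl diphosphate isomerase, was at 41.6, 43.1 and 45.3 CPM in young cells and at 140, 130 and 133 CPM in ICM cells. No young library reached the ICM level, and the change was 3.10-fold (log2 1.63 ± 0.07, adjusted p = 8.6e-16, edgeR). Mevalonate kinase, MVK, rose by 1.31 ± 0.09, and HMGCS1, which makes HMG-CoA, by 0.75 ± 0.07. MVD rose by 0.67 ± 0.08, ACAT2 by 0.43 ± 0.07 and FDPS by 0.41 ± 0.07. PMVK, the kinase of the next step after MVK, had a log2 change of 0.10 ± 0.09 and no call.

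From squalene to cholesterol, all 11 genes rose (median 0.55). HSD17B7, a ketosteroid reductase of the pathway, was at 4.72, 4.53 and 4.10 CPM in young and 11.6, 12.8 and 11.4 CPM in ICM cells (log2 1.42 ± 0.13, adjusted p = 1.8e-09, edgeR). Its level was low. Its pseudogene HSD17B7P2 held 513 reads against 718 for HSD17B7 over the mRNA-seq libraries, so that reads could have been divided between them. DHCR7, which reduces 7-dehydrocholesterol to cholesterol, was at 60.7, 60.9 and 63.9 CPM in young and 152, 155 and 159 CPM in ICM cells (log2 1.33 ± 0.07). CYP51A1, the lanosterol demethylase, rose by 1.18 ± 0.06 and SC5D, the lathosterol desaturase, by 1.04 ± 0.08. Rises of intermediate size were those of NSDHL, a C4 decarboxylase (0.62 ± 0.08), MSMO1 (0.55 ± 0.10), FDFT1 (0.52 ± 0.06), LSS (0.52 ± 0.07), SQLE (0.40 ± 0.08) and TM7SF2, a sterol reductase (0.36 ± 0.12). The smallest change was in EBP, the sterol isomerase (0.20 ± 0.08), whose call was lost in 5 alternatives, with adjusted p of 0.060 to 0.18 (edgeR or DESeq2). Of their annotated exonic bases, CYP51A1 shares 68.2% and EBP 36.4% with another annotated gene on the same strand. How reads in these shared bases were assigned was not tested.

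Among the sensing genes the changes were smaller. INSIG1, the retention protein that is itself an SREBP target, was at 50.1, 46.6 and 42.1 CPM in young and at 66.2, 76.6 and 59.6 CPM in ICM cells (log2 0.55 ± 0.09). STARD4, a carrier of cholesterol between membranes, rose by 0.43 ± 0.10 and SREBF2 by 0.26 ± 0.06. The mRNA of SREBF1 had a log2 change of 0.07 ± 0.11. Of the efflux genes, ABCA1 was at 16.9, 23.7 and 22.5 CPM in young and 33.2, 33.4 and 31.5 CPM in ICM cells, with no overlap (log2 0.62 ± 0.10, adjusted p = 7.0e-06, edgeR). ABCG1 was near the limit of detection, with 2, 2 and 7 reads in young and 2, 3 and 6 in ICM libraries, and was not tested.

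**Figure D2:**
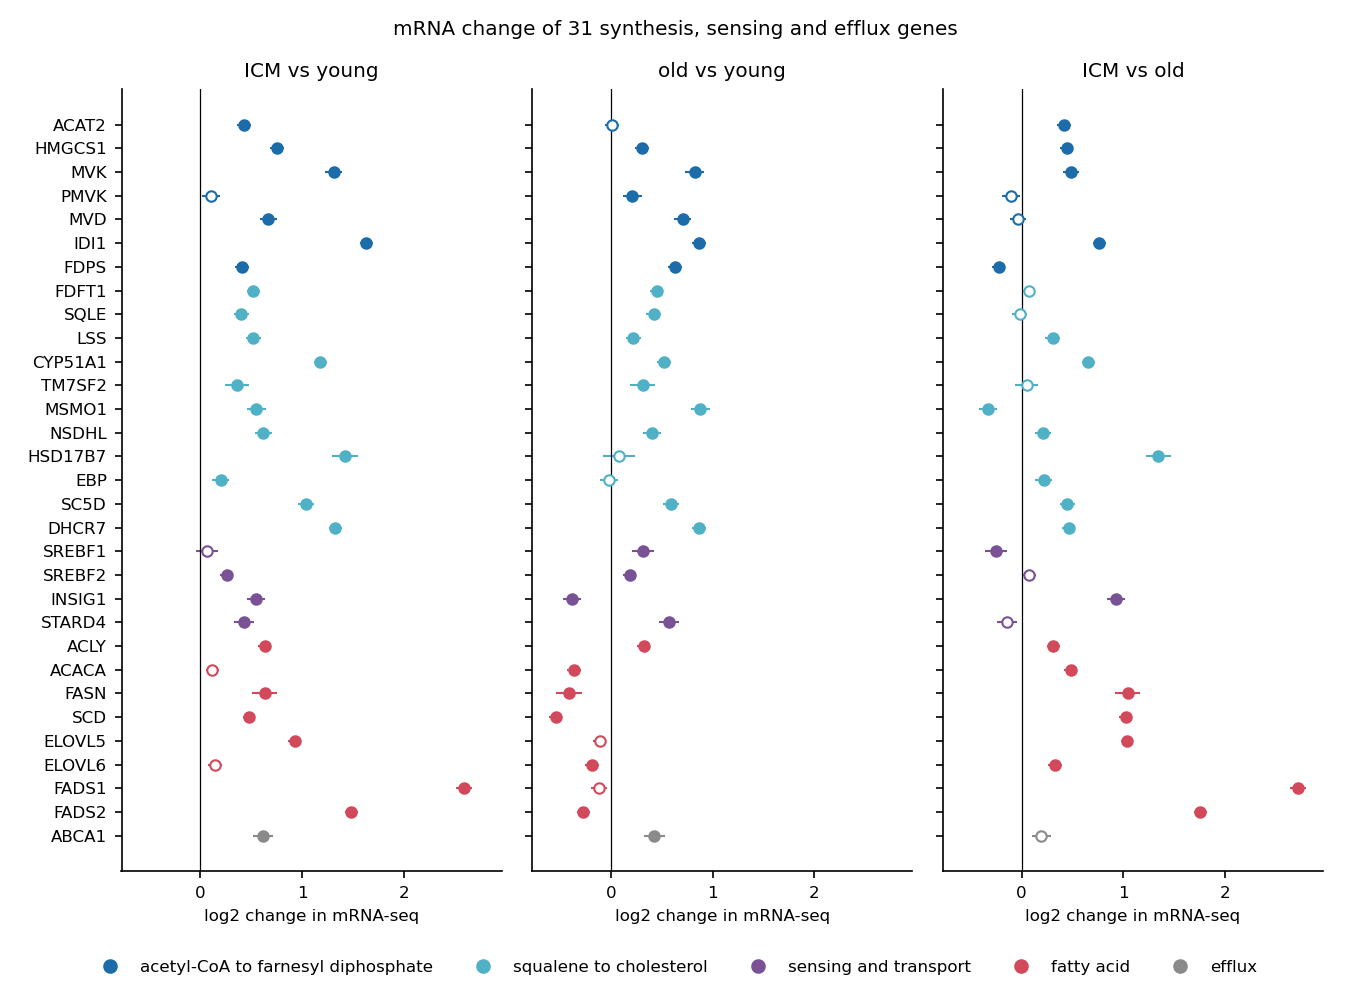
Log2 change in mRNA-seq of 31 genes (points, with SE as bars) in 3 comparisons, coloured by role, with filled points for an adjusted p under 0.05 and open points for the rest. In ICM vs young all points lie right of 0, whereas in old vs young 7 of the 8 fatty acid genes lie left of 0.

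The comparison of old with young cells asks how replicative senescence changed the same genes. The branches parted. In mRNA-seq 20 of the 31 genes rose and 6 fell, against 32.4% and 33.7% of all genes tested, and the 31 had a median log2 change of 0.31 (all genes -0.01). Of the sterol branch 15 of 18 rose and 0 fell (median 0.44), whereas of the fatty acid genes 1 of 8 rose and 5 fell (median -0.23). Both comparisons use the same young libraries, so that their values are set side by side here and not correlated.

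Among sterol genes the largest change was in MSMO1, a methyl oxidase that removes the C4 methyl groups. It stood at 43.9, 50.8 and 62.1 CPM in young, at 90.1, 107 and 92.7 CPM in old and at 82.2, 71.6 and 77.0 CPM in ICM cells. The old libraries were the highest of the 9, with a log2 change of 0.88 ± 0.09 against young (adjusted p = 3.5e-08, edgeR). IDI1 was at 77.2, 80.4 and 79.3 CPM in old cells, between the young and the ICM levels and overlapping neither (log2 0.87 ± 0.07 against young). DHCR7, at 111, 106 and 122 CPM, was likewise between them (0.87 ± 0.07). MVK rose by 0.82 ± 0.09 and MVD, the decarboxylase that makes isopentenyl diphosphate, by 0.70 ± 0.08.

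FDPS (0.63 ± 0.07), SC5D (0.59 ± 0.08), CYP51A1 (0.52 ± 0.07), FDFT1 (0.45 ± 0.06), SQLE (0.42 ± 0.08), NSDHL (0.40 ± 0.09) and HMGCS1 (0.31 ± 0.07) were called higher in old cells as well. HSD17B7, which rose in ICM cells, stood at 4.84, 4.74 and 4.45 CPM in old cells (log2 0.08 ± 0.16 against young, adjusted p = 0.70, edgeR). ACAT2, the cytosolic thiolase at the head of the pathway, had a change of 0.01 ± 0.07, and EBP one of -0.02 ± 0.09. ACAT2 shares 17.2% of its annotated exonic bases with TCP1 on the other strand, so that its reads may hold some of that gene. Several small rises did not hold in every alternative: the calls of PMVK, LSS, TM7SF2, SREBF1 and SREBF2, with log2 changes of 0.19 to 0.32, were each lost in 2 to 6 alternatives.

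SCD had the largest fall. Its mRNA was at 286, 260 and 282 CPM in young and at 187, 189 and 192 CPM in old cells, and in ICM cells it was at 380, 404 and 370 CPM. The 3 conditions did not overlap, with old lowest and ICM highest (old vs young log2 -0.54 ± 0.06, adjusted p = 8.6e-08, edgeR). FASN was at 111, 129 and 157 CPM in young and at 99.9, 74.6 and 126 CPM in old cells. These groups overlapped, and the fall of FASN (log2 -0.41 ± 0.13, adjusted p = 0.0070, edgeR) lost its call with DESeq2 and without young replicate 3 or old replicate 2 (adjusted p of 0.063 to 0.092). ACACA (-0.36 ± 0.06), FADS2 (-0.27 ± 0.06) and ELOVL6 (-0.19 ± 0.07) also fell, the last of these not in 5 alternatives. ACLY alone of the group rose (0.32 ± 0.07). FADS1 was at 85.3, 87.2 and 92.3 CPM in old cells, each below the young libraries, but the change of -0.12 ± 0.08 was not called (adjusted p = 0.18, edgeR).

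INSIG1 went with the fatty acid genes. It was at 35.3, 33.4 and 37.7 CPM in old cells, below all young libraries (log2 -0.38 ± 0.09, adjusted p = 0.0010, edgeR), although the call was lost when only CDS reads were counted (adjusted p = 0.10). STARD4 went the other way, from 28.7, 27.4 and 38.7 CPM in young to 43.2, 49.5 and 47.9 CPM in old cells (0.57 ± 0.10). ABCA1 was at 28.8, 27.3 and 29.9 CPM in old cells, above every young library (0.43 ± 0.10). ABCG1 had 12, 12 and 7 reads in the old libraries.

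**Figure D3:**
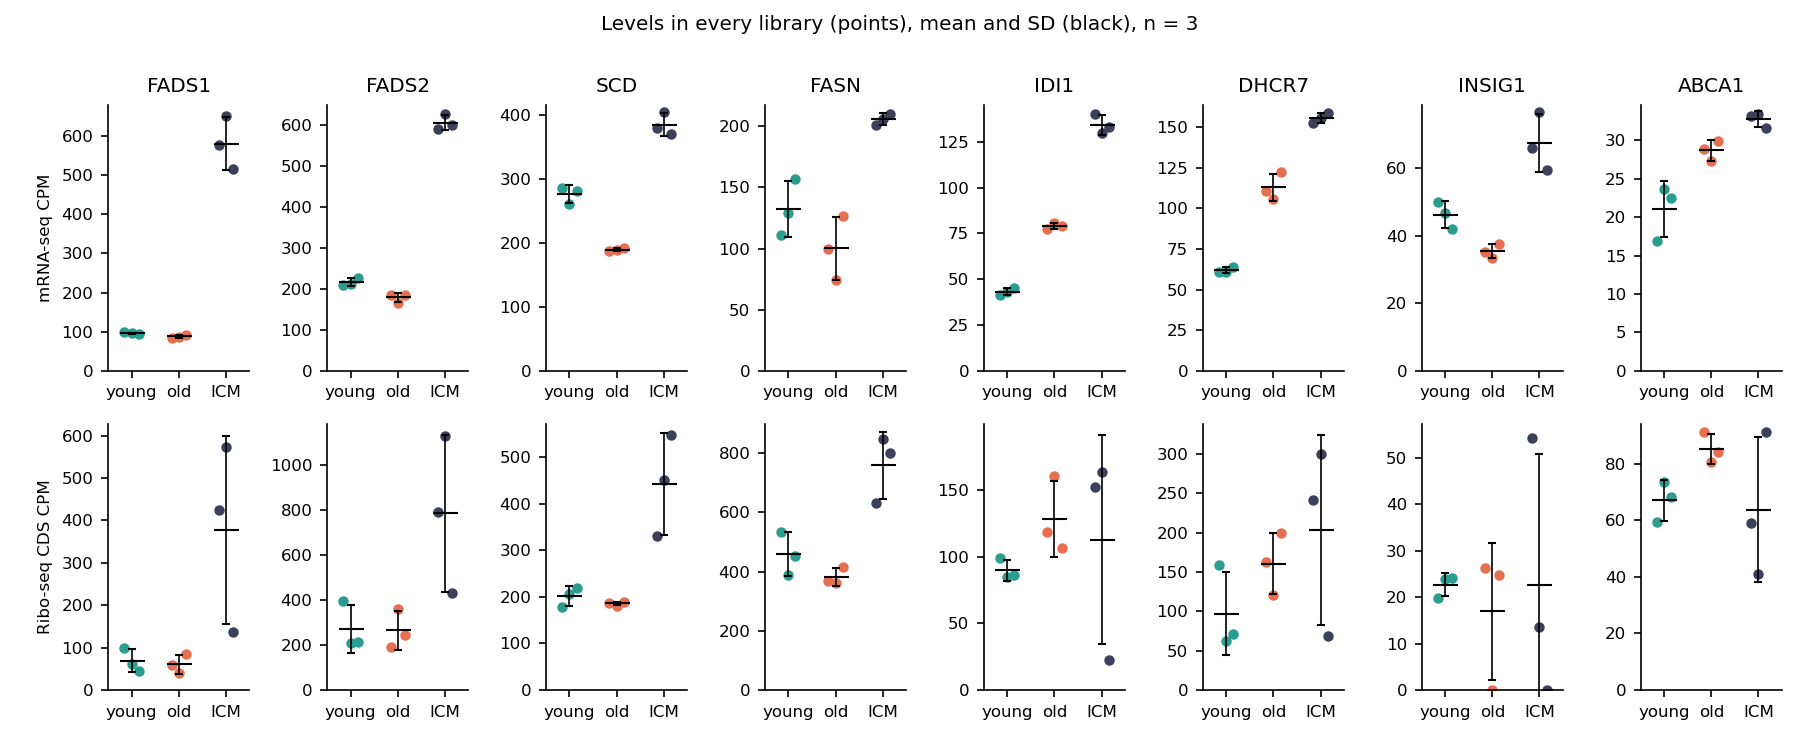
Level of 8 genes in each library, as CPM, in mRNA-seq (top) and as CDS footprints in Ribo-seq (bottom), with the mean and SD of 3 replicates in black. For SCD the mRNA-seq levels were lowest in old (187 to 192) and highest in ICM cells (370 to 404), and for IDI1 they were lowest in young cells.

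The comparison of ICM with old cells sets the treated low-passage cells against the senescent ones. The branches again differed in count. All 8 fatty acid genes were higher in ICM (median log2 difference 1.03), with 11 of 18 sterol branch genes higher and 2 lower (median 0.26). Over all 31 genes, 20 were higher and 3 lower, against 30.7% and 32.6% of all genes tested, with a median of 0.33 (all genes -0.01). FADS1 differed most, by 2.72 ± 0.08, and FADS2 by 1.76 ± 0.06. FASN, ELOVL5 and SCD differed by 1.04, 1.04 and 1.02 (SE 0.12, 0.06 and 0.06), or 2.06-fold, 2.05-fold and 2.03-fold. ACACA was higher by 0.48 ± 0.06.

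Sterol genes above the old level in ICM were HSD17B7 (1.35 ± 0.13), IDI1 (0.77 ± 0.06), CYP51A1 (0.66 ± 0.06), MVK (0.49 ± 0.08), DHCR7 (0.46 ± 0.06), SC5D (0.45 ± 0.07), HMGCS1 (0.44 ± 0.07), ACAT2 (0.42 ± 0.07), LSS (0.31 ± 0.07), EBP (0.22 ± 0.08) and NSDHL (0.21 ± 0.08). The genes that were lower in ICM than in old cells were MSMO1 (-0.33 ± 0.09) and FDPS, the farnesyl diphosphate synthase (-0.22 ± 0.07). FDPS carries the caution that its pseudogene FDPSP2 held 1552 reads against 12174 for FDPS. Calls in this comparison were lost for MSMO1 with CDS reads alone (adjusted p = 0.23) and for EBP in 3 and NSDHL in 4 alternatives (edgeR or DESeq2). INSIG1 was higher in ICM by 0.93 ± 0.09, and SREBF1 lower by 0.25 on the log2 scale (-0.25 ± 0.11), a call lost in 7 alternatives. For ABCA1 the difference of 0.19 ± 0.09 was not called (adjusted p = 0.075, edgeR).

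Levels can be compared between genes only per length. CDS reads in mRNA-seq were therefore divided by the coding length of each gene in kilobases, for all genes but ACACA, whose annotated coding length was incomplete. In young cells the highest levels were those of FADS2 (141 ± 7.8 CPM per coding kilobase, SD, n = 3), ACLY (126 ± 9.9), FDFT1, the squalene synthase (115 ± 5.3), and FDPS (96.0 ± 5.3). FADS2 and ACLY, and ACLY and FDFT1, lay within 2 SD of each other. In old cells FDFT1 (159 ± 8.3), ACLY (159 ± 10.8) and FDPS (152 ± 10.6) led and did not differ beyond their spread. In ICM cells FADS2 (397 ± 23.5) and FADS1 (240 ± 29.9) had the highest means, followed by ACLY (200 ± 1.8), which lay within 2 SD of FADS1. FADS1 had been at 37.3 in young cells, close to SQLE (39.5), the squalene epoxidase. The lowest, apart from ABCG1, was ABCA1 (3.5 in young, 4.9 in old and 5.9 in ICM cells). HSD17B7 was next in young (5.3) and old cells (5.6), and at 15.7 in ICM cells it stood above TM7SF2 (10.9) and SREBF1 (11.1).

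**Figure D4:**
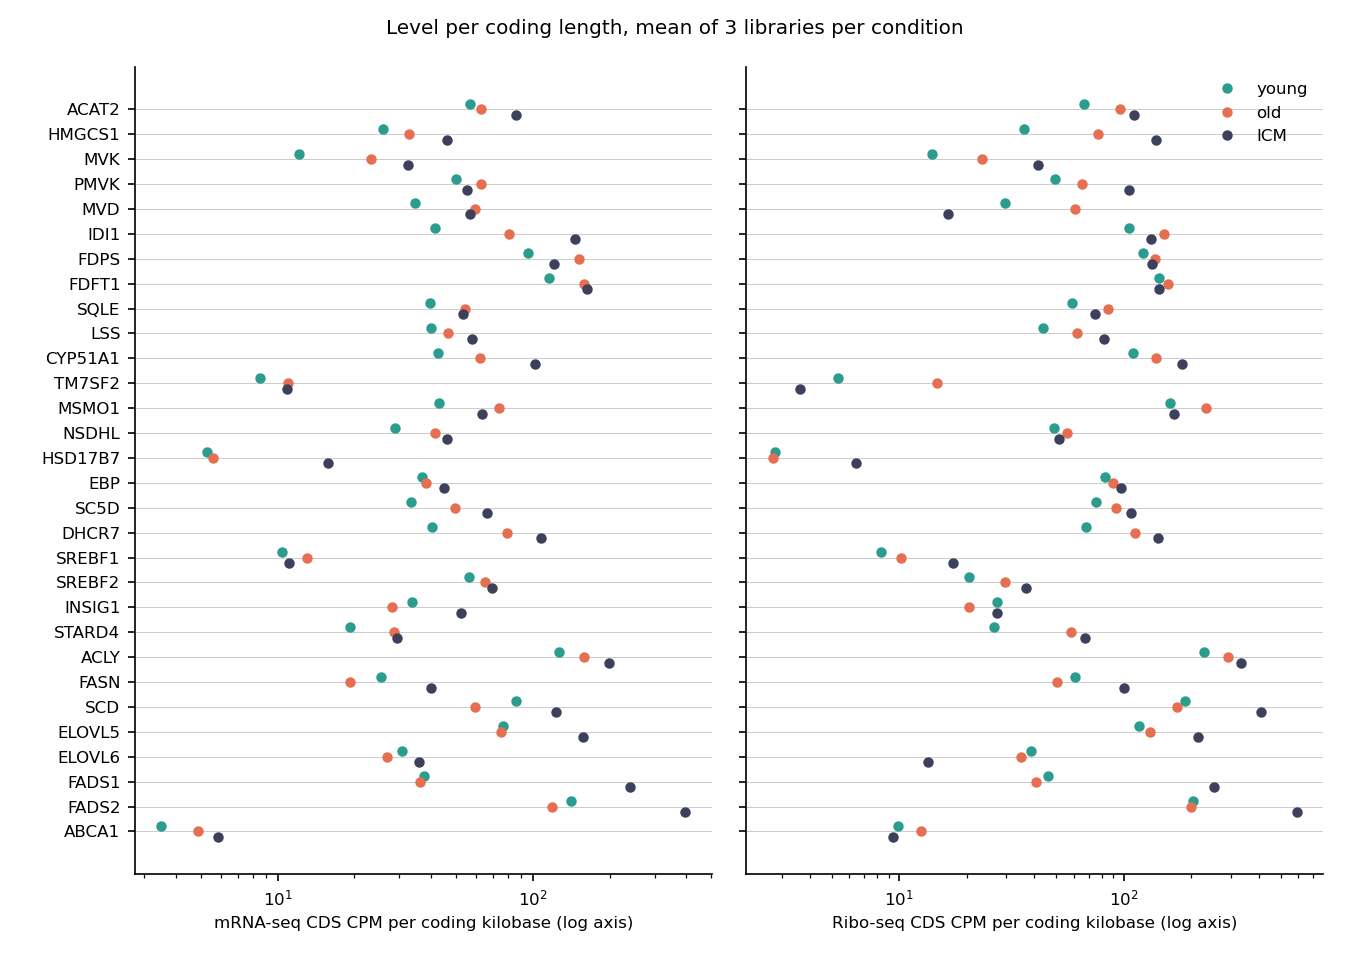
Mean level per coding kilobase (CPM, log axis) in mRNA-seq CDS reads (left) and Ribo-seq CDS footprints (right) of 30 genes, with 1 point per condition. In mRNA-seq, FADS2 was at 141 in young, 119 in old and 397 in ICM cells, and ABCA1 was the lowest in all 3 conditions (ABCG1 is not drawn).

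Ribo-seq asked whether ribosome footprints followed. Only 24 of the 32 genes passed the filter (not MVK, PMVK, TM7SF2, HSD17B7, INSIG1, STARD4, ELOVL6 and ABCG1). In ICM vs young, 9 of the 24 rose and 0 fell, against 13.7% and 12.9% of 4643 genes tested, with a median of 0.59 (all genes 0.00). In old vs young, 3 rose and 1 fell, against 19.3% and 17.0%, with a median of 0.36 (all genes 0.02). These 4 calls were FDPS, LSS and DHCR7 (higher) and ACACA (lower), and their number was 0 with DESeq2 and without young replicate 2 or 3, 1 without old replicate 1 or 3 or with a replicate block. It was 7 when ICM replicate 1 was left out. In ICM vs old, 5 rose and 0 fell, against 5.79% and 7.62%, with a median of 0.20 (all genes -0.02). Where a gene was called in both assays, the direction was the same in 9 of 9, 4 of 4 and 5 of 5 genes, and among all genes tested in both it was the same in 1116 of 1156, 1506 of 1545 and 587 of 589.

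FADS1 footprints stood at 99.0, 62.3 and 45.8 CPM in young, from 5, 39 and 72 reads, and at 424, 573 and 137 CPM in ICM, from 86, 42 and 6 reads. ICM replicate 3 was the lowest of its group, but above all young libraries. The change was 7.63-fold (log2 2.93 ± 0.31, adjusted p = 4.2e-09, edgeR), and 3.06 ± 0.27 without ICM replicate 3. FADS2 footprints were at 396, 208 and 213 CPM in young, from 20, 130 and 334 reads, and at 793, 1132 and 434 CPM in ICM, from 161, 83 and 19 reads (1.85 ± 0.25, and 1.95 ± 0.22 without ICM replicate 3). Young replicate 1 and ICM replicate 3 were closest, yet the groups did not overlap. In the old libraries FADS1 was at 58.3, 40.2 and 84.1 CPM and FADS2 at 193, 362 and 244 CPM, within or near the young range. Without ICM replicate 3, FADS1 was called higher in ICM than in old cells by 2.74 ± 0.27 and FADS2 by 1.92 ± 0.23.

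SCD footprints rose from 178, 206 and 220 CPM in young to 330, 450 and 548 CPM in ICM cells (0.94 ± 0.23), and those of FASN from 535, 387 and 454 to 631, 846 and 799 CPM (0.75 ± 0.20). Neither gene overlapped between the groups, and without ICM replicate 3 both were still called (0.72 ± 0.24 and 0.63 ± 0.22). The call of FASN was lost in 4 alternatives, among them those without young replicate 2 or 3, and that of SCD in 1. Against old cells SCD was higher in ICM by 1.11 ± 0.23 and FASN by 0.93 ± 0.21, and by 0.88 ± 0.25 and 0.78 ± 0.22 without that library. In old cells the footprints of SCD were at 187, 181 and 189 CPM (-0.17 ± 0.20 against young, adjusted p = 0.52, edgeR), so that the fall in its mRNA had no called counterpart at this depth. ACACA was the 1 gene called lower in old cells (-0.83 ± 0.29), from 99.0, 76.7 and 92.3 CPM in young to 52.6, 20.1 and 45.2 CPM, on as few as 5 reads in young replicate 1 and 1 read in old replicate 2. That call was lost in 9 alternatives.

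In the sterol branch, DHCR7 footprints were at 158, 62.3 and 70.6 CPM in young, 162, 121 and 199 in old and 241, 300 and 68.5 CPM in ICM cells. Young replicate 1 held 8 of those reads and ICM replicate 3 held 3, and these values were the highest of the young and the lowest of the ICM group. DHCR7 was called higher in ICM (1.67 ± 0.32, or 1.78 ± 0.30 without ICM replicate 3) and in old cells (1.27 ± 0.26), the latter not without young replicate 2 or 3 or with DESeq2 (adjusted p of 0.067 to 0.11). HMGCS1 was at 0, 81.5 and 86.5 CPM in young and at 182, 286 and 183 CPM in ICM cells (1.38 ± 0.32, and 1.31 ± 0.32 without ICM replicate 3). Its 0 in young replicate 1 is a count of 0 reads in a library of 54421. HMGCS1 was also called higher in ICM than in old cells (0.92 ± 0.31), a call lost in 12 alternatives, one of them without ICM replicate 3 (adjusted p = 0.054, edgeR). LSS, the lanosterol synthase (0.97 ± 0.29), CYP51A1 (0.68 ± 0.25) and ACLY (0.66 ± 0.20) were also called in ICM vs young, but LSS and ACLY lost the call in 6 alternatives each and CYP51A1 in 13. Without ICM replicate 3, LSS was at 0.90 ± 0.31 and ACLY at 0.75 ± 0.20, both called. In the same setting, CYP51A1 was at 0.66 ± 0.26 (adjusted p = 0.050, edgeR) and SC5D, not called with it, was called at 0.98 ± 0.35.

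IDI1, the most raised sterol branch mRNA, had footprints of 99.0, 84.7 and 86.5 CPM in young and 153, 164 and 22.8 CPM in ICM cells, the last from 1 read. The groups overlapped through ICM replicate 3, and the change of 0.64 ± 0.34 was not called (adjusted p = 0.17, edgeR). It was 0.77 ± 0.32 without that library (adjusted p = 0.073). MSMO1 was at 119, 165 and 141 CPM in young, 185, 282 and 150 in old, and 261, 136 and 45.7 CPM in ICM cells, with overlap in each comparison and no call. ABCA1 footprints were at 59.4, 73.5 and 68.1 CPM in young, 91.0, 80.5 and 84.1 in old and 59.1, 40.9 and 91.3 CPM in ICM cells. For ABCA1 the log2 change in ICM vs young was -0.23 ± 0.42, or -0.45 ± 0.45 without ICM replicate 3, with an SE too wide to detect a rise of the size seen in mRNA-seq.

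**Figure D5:**
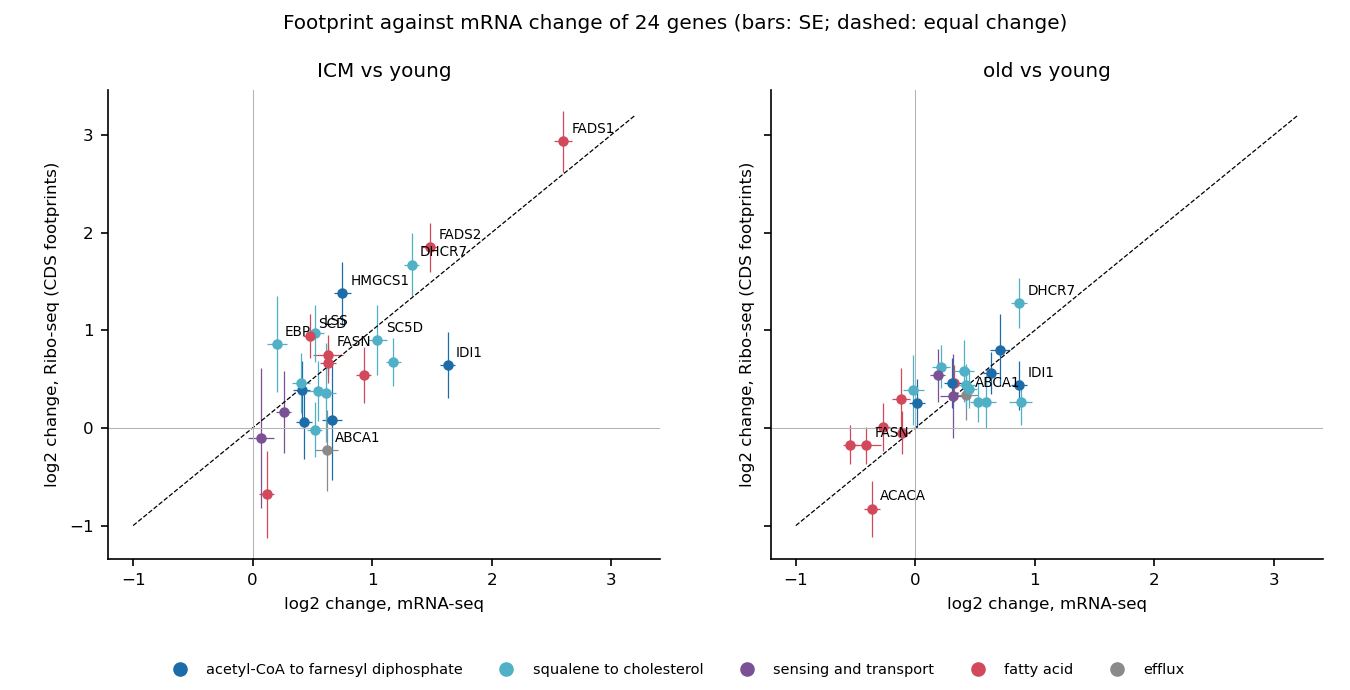
Log2 change in Ribo-seq CDS footprints against log2 change in mRNA-seq for 24 genes, with SE as bars, in ICM vs young (left) and old vs young (right). The dashed line marks equal change, FADS1 lies at 2.60 and 2.93 in ICM vs young, and IDI1 lies below the line at 1.63 and 0.64.

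Translational efficiency, the footprint level relative to the mRNA level of the same lysate, was tested in one model of all libraries. None of the 24 genes was called in any comparison (edgeR, 4618 genes tested). With an unadjusted p under 0.05 there were 3, 0 and 0 genes in ICM vs young, old vs young and ICM vs old. Among all 4618 genes tested, 713, 588 and 483 had such an unadjusted p, in the same order. DESeq2 called 0 of the 24 genes in each comparison as well. Over all genes, 0.931% rose and 1.15% fell in ICM vs young, 0.801% rose and 0.671% fell in old vs young, and 0.065% rose and 0.217% fell in ICM vs old. The gene nearest to a call was IDI1 in ICM vs young, at -1.04 ± 0.34 (adjusted p = 0.099). It was at -0.88 ± 0.32 without ICM replicate 3 (adjusted p = 0.13), and without the block for the lysate it was called (-1.01 ± 0.26, adjusted p = 0.017). Standard errors over the 24 genes ran from 0.20 to 0.70 in this comparison, so that a change in efficiency of the size of most mRNA changes above was not detectable at this depth.

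The 3 Ribo-seq libraries with over 500000 CDS reads and over 75% of reads in the CDS (young replicates 2 and 3 and old replicate 1) allow the footprint level per mRNA to be compared between genes, as the ratio of CDS CPM in Ribo-seq to CDS CPM in mRNA-seq. MSMO1 had the highest mean of the 32 genes, at 4.46, 2.77 and 3.18 in these libraries. CYP51A1 (2.70, 2.70 and 2.08), ABCA1 (2.76, 2.68 and 2.57) and SCD (2.44, 2.31 and 2.92) were also high. The lowest was SREBF2, at 0.38, 0.40 and 0.48. SREBF1 was at 1.37, 0.84 and 1.00, and FADS1 and FADS2 lay between 0.81 and 1.23. These ratios are relative to the average read and hold no correction for mappability.

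Footprints in the 5′ UTR were rare for most of these genes. In the same 3 libraries, 5′ UTR reads made up a median of 1.33% of the reads in the 5′ UTR and CDS over 30 genes with at least 30 such reads in Ribo-seq, against 12.7% over 31 genes in mRNA-seq. Over all genes the Ribo-seq share was 2.82% to 5.06% and the mRNA-seq share 13.3% to 16.4%. ELOVL6 was the highest, with 26 reads in the 5′ UTR and 126 in the CDS, or 17.1% (exact binomial 95% interval 11.5% to 24.1%), and its mRNA-seq share was 16.2% (13.2% to 19.5%). In young replicates 2 and 3 and old replicate 1 the ELOVL6 counts were 8, 11 and 7. STARD4, whose mRNA-seq share was the highest of the set at 33.3% (28.5% to 38.4%), had 5 reads of 107, or 4.67% (1.53% to 10.6%), in Ribo-seq. For FADS1 it was 0 of 193 footprints, which allows a share of up to 1.89% (exact binomial), and its mRNA-seq share was 0.82%. Intervals cover counting error only.

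The 3′ UTR share of mRNA reads is given for genes with large changes and for the exceptions. For FADS1 the share was 62.2% (young), 61.1% (old) and 60.9% (ICM), and for SCD 73.3%, 73.3% and 72.6%. Over all genes it was 24.9%, 27.6% and 25.2%. FASN had 5.58% ± 1.23, 7.70% ± 0.84 and 7.0% ± 0.65 (SD, n = 3), in the same order of conditions. ACAT2 had 19.3% ± 5.24, 13.8% ± 3.62 and 10.2% ± 1.29 (SD, n = 3), and it is the gene whose exons overlap TCP1. FDPS had no 3′ UTR reads in any library.

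A wider list of 37 genes around the pathway gave the setting. It covered SREBP processing and turnover (9 genes), further synthesis genes (14) and storage, transport and oxysterol response (14), and 35 were tested in mRNA-seq. In ICM vs young 25 rose and 7 fell (median 0.53), against 34.9% and 36.1% of all genes. In old vs young 21 rose and 4 fell (median 0.33), against 32.4% and 33.7%. In ICM vs old 14 were higher and 7 lower (median 0.04), against 30.7% and 32.6%. In Ribo-seq 19 were tested. Of these, 5 rose and 0 fell in ICM vs young (13.7% and 12.9% of all genes), 6 rose and 1 fell in old vs young (19.3% and 17.0%), and 2 were higher and 1 lower in ICM vs old (5.79% and 7.62%).

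Among the 9 SREBP processing genes, 7 rose and 2 fell in ICM against young, beside 34.9% and 36.1% of all genes. In old cells against young 7 rose and 0 fell, beside 32.4% and 33.7% of all genes. SCAP, the escort of SREBPs, rose by 0.28 ± 0.07 in old and by 0.44 ± 0.07 in ICM cells on the log2 scale. ME1, the malic enzyme that supplies NADPH for fatty acid synthesis, was at 114, 108 and 108 CPM in young, 87.8, 97.2 and 102 in old and 262, 273 and 265 CPM in ICM cells. Its order, with old lowest and ICM highest, was that of SCD.

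SCD5, the second stearoyl-CoA desaturase, moved against SCD in old cells. It was at 21.0, 24.9 and 24.1 CPM in young, at 122, 124 and 125 in old and at 48.5, 41.4 and 44.9 CPM in ICM cells (old vs young log2 2.40 ± 0.08, adjusted p = 6.9e-17, edgeR). Its footprints rose by 2.77 ± 0.26 in old cells. LBR, a nuclear membrane protein with sterol reductase activity like TM7SF2, fell by 1.59 in old and by 1.02 in ICM cells (log2 -1.59 ± 0.08 and -1.02 ± 0.08). NR1H3, the LXR-alpha receptor, was at 7.82, 7.76 and 8.10 CPM in young, 3.12, 2.82 and 2.13 in old and 6.99, 7.96 and 7.04 CPM in ICM cells (old vs young -1.55 ± 0.16). The low-level genes ABCA7 (ICM vs young 1.96 ± 0.21), MYLIP (1.11 ± 0.29) and CH25H (1.08 ± 0.45) also rose in ICM, CH25H on only 0 to 15 reads per library. MYLIP, the ligase that lowers lipoprotein receptors under LXR control, rose by 1.34 ± 0.28 in old cells as well.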

How the data were processed

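The authors deposited one table per library, whose rows are gene symbols and whose values are the authors' estimated counts in the 5′ UTR, CDS, 3′ UTR and other classes, not scaled to depth. Between 14.1% and 23.2% of the non-zero values were not whole. The submitters' processing notes name STAR 2.6.0c, featureCounts, DESeq2 and deepTools, and build GRCh37, without roles, and strand use in counting was not given in the sources used here.

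Counts were rounded. CDS reads were used for Ribo-seq and the sum of 5′ UTR, CDS and 3′ UTR for mRNA-seq. Each assay was fitted over all genes and its 9 libraries in R 4.3.3 by the quasi-likelihood functions of edgeR 4.0.16 (glmQLFit, glmQLFTest), after TMM scaling and filterByExpr. Tests were two-sided, with Benjamini-Hochberg adjustment over all genes tested. Translational efficiency was the interaction of assay and condition, with the lysate as a block, because per the methods each lysate was split between the assays (their deviations correlated with r of -0.080 to 0.136). SE are on the log2 scale. Alternatives were DESeq2 1.42.0, RLE scaling, no filter, a replicate block or none, CDS reads only, thinned mRNA-seq, and leaving out lysates. The fits were tested on simulated data. Replicates are called independent in the methods, and p-values measure the spread between these samples. Intervals and the limit of 3 reads behind a count of 0 cover counting error only.

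By rule all 32 genes were named, and values in every library were given for those with the largest mRNA-seq change by role and comparison, for both efflux genes, and for others that the results turn on. Genes of the wider list were named where called in mRNA-seq with a log2 change over 1 against young, with SCAP chosen after its values were seen. A single result of that list is not reported here. Members and lists were chosen with earlier results of these data known. Coding lengths came from MANE Select transcripts of GENCODE v44 on GRCh37, not from protein lengths as planned, and exon overlaps from the same annotation. Promoter windows came from RefSeq on GRCh38.p14 and were not compared with read positions. Genes for the check of libraries differed in mRNA-seq from both other conditions by over 2 on the log2 scale.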

Additional observations from a re-analysis of the deposited data

Results flagged for a closer look

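In mRNA-seq, INSIG1, FASN, SCD and FADS2 moved in opposite directions in ICM and old cells against the same young libraries (edgeR, both changes called). They are listed for these opposite calls, so that a higher level in ICM than in old cells follows largely from the choice. The share of all genes with such opposite calls is not given here. INSIG1 differed by 0.93 (log2, ICM over old), FASN by 1.04, SCD by 1.02 and FADS2 by 1.76. In each of these genes all 3 ICM libraries lay above all 3 old libraries. The fall of FASN in old cells and that of INSIG1 were not called in every alternative, as given above.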

How the results depend on the processing

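Directions of called members held in every alternative except for MVD in ICM vs young, which stood at -0.30 (adjusted p = 0.65) with mRNA-seq thinned to Ribo-seq depth, a setting that leaves fewer reads and 23 members to test. With such thinning 12, 13 and 10 members were called in ICM vs young, old vs young and ICM vs old, against 27, 26 and 23. All genes called higher went from 4597, 4271 and 4049 to 910, 1355 and 593 in the same order. Those called lower went from 4760, 4438 and 4289 to 823, 1245 and 646. Leaving out each lysate in turn gave 25 to 28, 21 to 26 and 20 to 24 in mRNA-seq, 5 to 9, 0 to 7 and 4 to 5 in Ribo-seq, and 0 in each comparison of translational efficiency. These counts pool both directions. In Ribo-seq, ICM vs young had 6 members higher and 1 lower without ICM replicate 2. ICM vs old had 4 higher and 1 lower without ICM replicate 1. In Ribo-seq, ICM vs young fell from 9 to 5 without young replicate 2 and without young replicate 3. Over all genes this comparison had 635 higher and 601 lower in the main fit. It had 289 and 356 without young replicate 2, and 281 and 338 without young replicate 3. Old vs young, with 4, had 0 without young replicate 2 or 3, 1 without old replicate 1 or 3 and 7 without ICM replicate 1. It also had 0 with DESeq2. Without a filter on low counts, which moved the median of all genes by -0.41 in ICM vs young, Ribo-seq called 4, 1 and 3, and the cause was not tested. Of all genes, 545, 1044 and 275 were then called higher and 932, 1000 and 526 lower. Between conditions, deviations of libraries with the same replicate number correlated with r of -0.055 to 0.103 in mRNA-seq and 0.005 to 0.056 in Ribo-seq. The Ribo-seq and mRNA-seq libraries of 1 lysate, which are paired, gave -0.080 to 0.136. These values therefore cannot decide whether the replicate numbers pair conditions. A replicate block gave 1 called member in old vs young Ribo-seq and 7 and 4 in the other comparisons, and changed no count of members in mRNA-seq. With that block Ribo-seq called 378 of all genes higher and 275 lower in old vs young. It called 351 and 390 in ICM vs young, and 168 and 250 in ICM vs old. Without the lysate block, 1 member was called in translational efficiency in ICM vs young. Of all genes, that setting called 143 higher and 137 lower, against 43 and 53 with the block. Single member values kept their direction and side of the threshold in 1292 of 1371 cases in mRNA-seq, 904 of 984 in Ribo-seq and 1055 of 1056 in translational efficiency. Without the 2 libraries under 50% CDS, Ribo-seq called 8, 4 and 4 members. Of all genes, 618, 1148 and 267 were then called higher and 935, 1006 and 606 lower.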
